A study of Homo sapiens with 12 samples.

Results

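The genes described here are the BTG and TOB antiproliferative genes BTG1, BTG2, BTG3, TOB1 and TOB2 and the GADD45 genes GADD45A, GADD45B and GADD45G, 8 of the 20318 gene entries in the deposited expression table. They were taken by gene symbol, and where a symbol had several entries the one with the highest mean over the libraries was used, which applied to BTG3. RNA was sequenced from Z138, an established mantle cell lymphoma line labelled as a lymphoblast line of WT genotype, grown in 1 medium for every group. The groups were 0.5 µM AU-15330 for 24 h (3 libraries), DMSO for 24 h (3 libraries), 0.5 µM AU-15330 for 8 h (3 libraries) and DMSO for 8 h (2 libraries analysed). AU-15330 is a PROTAC that directs the BAF chromatin remodelling ATPases SMARCA2 and SMARCA4 and the PBAF subunit PBRM1 to the proteasome, and DMSO is its solvent. The labels name 3 DMSO samples at 8 h, but the entries for replicates 2 and 3 both point to 1 column, which appears in the table again with identical values, so it was counted as 1 library and has no replicate number here. Nothing in the labels says that replicates were separate cultures, so the p-values measure the spread between these libraries, which may be technical. The labels also give each time a batch of its own, so time and batch cannot be told apart in any comparison of 24 h with 8 h.

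BTG and TOB proteins share an amino-terminal domain that binds the deadenylases CNOT7 and CNOT8 of the CCR4-NOT complex, and through it they shorten the poly(A) tails of messenger RNAs. BTG1 and BTG2 hold mouse T cells in a resting state, and BTG1 is a recurrent target of mutation in B cell lymphomas. GADD45 proteins are small acidic proteins made in response to stress or cytokines, which bind the kinase MAP3K4 upstream of p38 and JNK, the cyclin B and CDK1 complex, CDKN1A and PCNA.

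Estimated totals were 50765418 to 67572111 counts per library. The deposited values are log2 values, read here as the output of a variance-stabilising transform. They were turned back into normalised counts, of which 59.4 equal 1 CPM, or counts scaled to a fixed library total. Levels below are normalised counts, changes are log2 differences of normalised count + 60 with their SE, and limma gave the adjusted p-values, on the deposited values and over the 12721 entries that reached 1 CPM in 3 or more libraries. The threshold was an adjusted p of 0.05. Each of the 8 genes passed that filter and exceeded 1 CPM in every library, so none entered through its higher group alone. The 9 B cell and mantle cell lymphoma identity genes were all measured, and their summed level was 3450 to 3570 CPM with AU-15330 and 4160 to 4190 CPM with DMSO at 24 h, and 3140 to 3250 CPM with AU-15330 and 3710 to 3780 CPM with DMSO at 8 h. Of these 9 genes, 7 fell and 1 rose at 24 h, and 6 fell and none rose at 8 h. T cell markers, 5 of 6 of them in the table, summed to 2.08 to 2.5 CPM with AU-15330 and 13.4 to 14.3 CPM with DMSO at 24 h, and to 4.36 to 5.78 CPM with AU-15330 and 13.5 to 13.6 CPM with DMSO at 8 h, most of it CD3G. Myeloid markers (4 of 6 in the table), erythroid markers (3 of 4) and the single megakaryocyte marker of 4 in the table summed to at most 1.38, 0.408 and 0.38 CPM in any library. Their part in the results was not tested.

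BTG2 had the largest change of the 8 genes under AU-15330 at 24 h, 4.31-fold higher than with DMSO. GADD45B and GADD45G were also higher in treated cells, by more at 8 h than at 24 h, and BTG1, BTG3 and TOB1 were lower in treated cells at 24 h. TOB2 and GADD45A did not pass the test at either time. The family was selected on these treated and control values, since BTG2 and GADD45B were among the largest rises in earlier results of these data. Their treated values are therefore given as a description, with no test. Of the other 6 genes, 4 passed the test at 24 h (1 higher, 3 lower) and 3 passed at 8 h (1 higher, 2 lower). The higher gene at both times was GADD45G, which ranked 34th from the highest of all tested genes at 8 h. Over all genes tested, 50.9% were called at 24 h, 24.7% higher and 26.2% lower (51.4% of the calls were lower, against 42.4% to 46.3% under other scalings), and 44.2% were called at 8 h, 22.9% higher and 21.4% lower. The shares among the 6 genes, 4 of 6 and 3 of 6, were thus not far from those of all genes, and these counts show nothing particular to the family. The median log2 change of the 6 genes was -0.24 at 24 h and -0.20 at 8 h, against 0.01 and 0.02 over all genes tested at those times. Leaving out BTG2 and GADD45B, which rose, lowers that median by construction. Over all 8 genes it was -0.08 at 24 h and -0.10 at 8 h. Treated and control libraries did not overlap for 59.0% of all tested genes at 24 h and 62.5% at 8 h, so separate groups below are common. Because RNA was taken from whole cultures, fewer cells expressing a gene and less of its RNA per cell cannot be told apart.

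**Figure D1:**
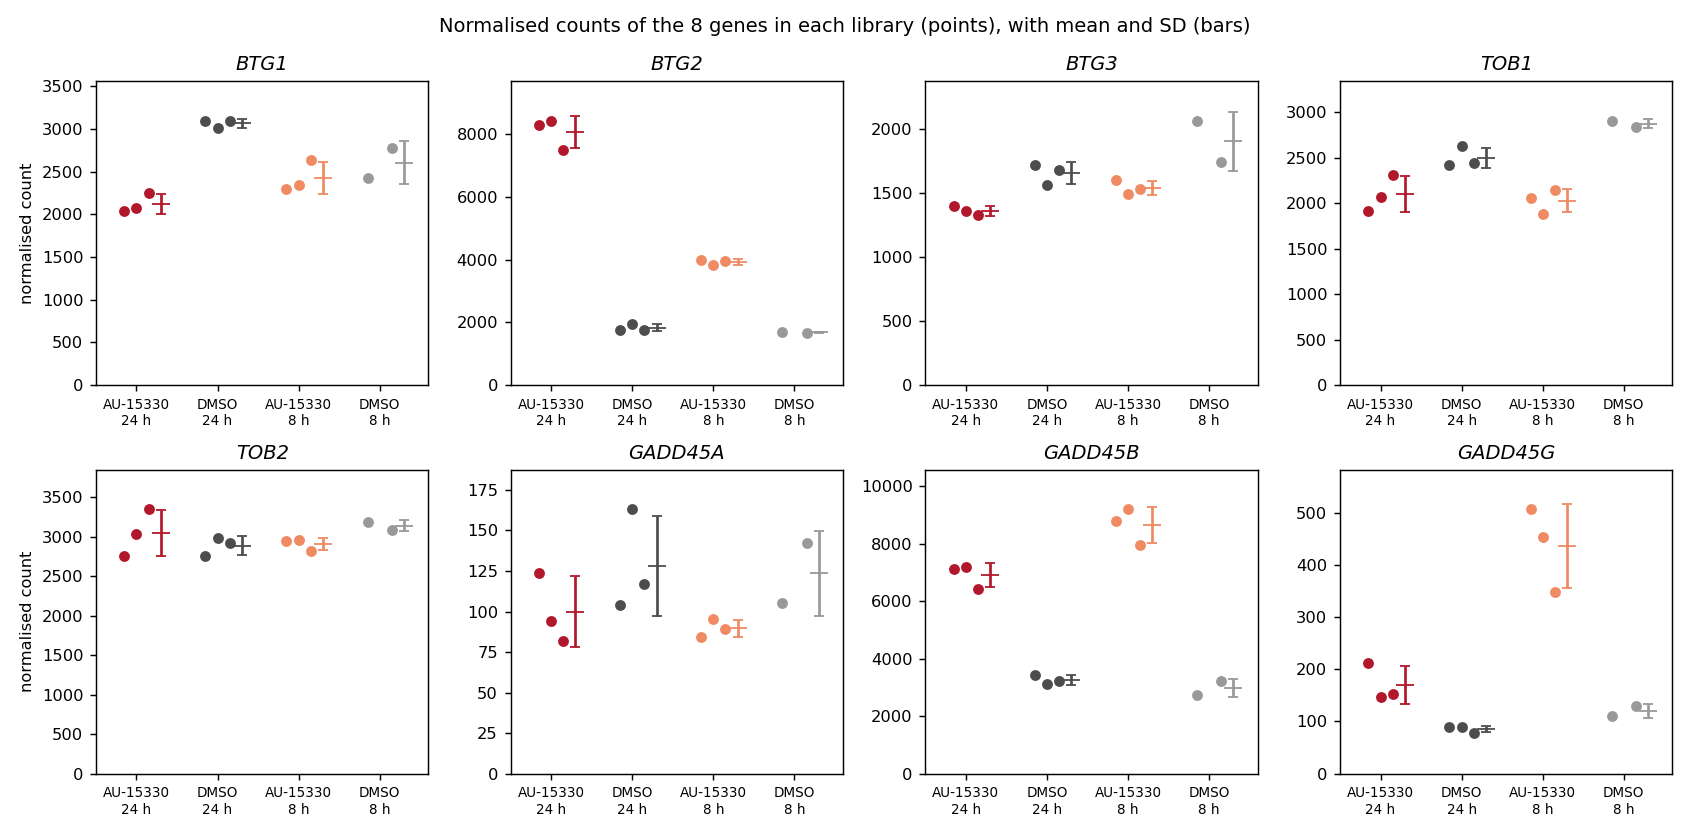
Normalised counts of the 8 genes in each library (points) with the mean and SD of each group (bar beside the points), with AU-15330 left of DMSO at each time and 24 h left of 8 h, each panel on its own axis from 0. BTG2 was highest in the 24 h treated libraries, at 7491 to 8434, while GADD45B and GADD45G were highest in the 8 h treated libraries.

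BTG2, a known p53 target that slows entry into the cell cycle, lies on chromosome 1 at chr1:203305491-203309602 of GRCh38, plus strand. Its normalised counts were 8300, 8434 and 7491 in AU-15330 libraries at 24 h, against 1766, 1956 and 1760 in DMSO libraries at 24 h. At 8 h they were 3998, 3833 and 3956 with AU-15330, against 1699 and 1663 with DMSO. Treated and control libraries were far apart at both times, while the DMSO libraries of both times lay close together. The log2 change was 2.11 ± 0.0563 at 24 h and 1.20 ± 0.0629 at 8 h, or 4.31-fold and 2.29-fold. It ranked 12th from the highest of all tested genes at 24 h and 74th at 8 h. BTG2 was also higher in treated cells at 24 h than at 8 h, with a log2 difference of 1.03 ± 0.0563 between treated libraries at 24 h and at 8 h.

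BTG1, the closest paralogue of BTG2, lies at chr12:92140278-92145897 on the minus strand. It had 2036, 2077 and 2249 normalised counts in AU-15330 libraries at 24 h, against 3091, 3009 and 3099 in DMSO libraries. Every treated library was below every control library at 24 h, and the log2 change was -0.52 ± 0.0675 (limma adjusted p = 5.93e-05). At 8 h it had 2301, 2346 and 2641 normalised counts with AU-15330 and 2427 and 2782 with DMSO. The groups overlapped at 8 h, and the log2 change of -0.10 ± 0.0754 did not pass (limma adjusted p = 0.318, 95% interval -0.26 to 0.07). The paralogues thus moved in opposite directions at 24 h, BTG2 higher and BTG1 lower. BTG1 overlaps the noncoding genes LINC01619 on the same strand and AC025164.1 on the other, and BTG3 and TOB1 overlap the antisense genes BTG3-AS1 and TOB1-AS1. None of these 4 was in the table, and no label says whether counting used strand, so the origin of reads in the shared stretches is uncertain.

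BTG3, a family member known to bind the transcription factor E2F1, lies at chr21:17593653-17612947 on the minus strand. Its normalised counts were 1400, 1357 and 1325 in AU-15330 libraries at 24 h, against 1721, 1558 and 1682 in DMSO libraries. At 8 h they were 1600, 1492 and 1531 with AU-15330, against 2063 and 1740 with DMSO. Treated and control libraries did not overlap at either time, as for 59.0% of tested genes at 24 h and 62.5% at 8 h. The treated minus control log2 change was -0.27 ± 0.0686 at 24 h (limma adjusted p = 0.00793) and -0.29 ± 0.0767 at 8 h (limma adjusted p = 0.00918). The 8 h call was lost without DMSO replicate 1, which leaves 1 DMSO library at 8 h that is assumed to vary like the other groups. There the log2 change was -0.17 (limma adjusted p = 0.124). Another entry with the BTG3 symbol, absent from the primary assembly in GENCODE release 29, averaged 145 ± 38.8 normalised counts in AU-15330 libraries and 145 ± 14.7 in DMSO libraries at 24 h (SD, n = 3 each), and 157 ± 10.4 in AU-15330 libraries (SD, n = 3) and 149 ± 9.04 in DMSO libraries (SD, n = 2) at 8 h. Its log2 changes of -0.01 and 0.05 did not pass (limma adjusted p = 0.966 and 0.799), and reads may be split between both entries, so BTG3 levels are uncertain by that amount.

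TOB1, which links the deadenylase complex to poly(A) binding protein and is known for holding T cells quiescent, lies at chr17:50862223-50867978 on the minus strand. It had 1911, 2068 and 2305 normalised counts in AU-15330 libraries at 24 h, against 2421, 2625 and 2437 in DMSO libraries. At 8 h it had 2059, 1884 and 2138 with AU-15330, against 2905 and 2839 with DMSO. The groups were separate at both times and farther apart at 8 h. The change on the log2 scale was -0.25 ± 0.0713 at 24 h (limma adjusted p = 0.0119) and -0.49 ± 0.0797 at 8 h (limma adjusted p = 0.000358). The 24 h call was lost by a narrow margin without AU-15330 replicate 1 (limma adjusted p = 0.0503) and without DMSO replicate 2 (limma adjusted p = 0.0501).

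TOB2, the paralogue of TOB1 at chr22:41433492-41447023 on the minus strand, averaged 3043 ± 293 normalised counts with AU-15330 and 2885 ± 117 with DMSO at 24 h (SD, n = 3 each). At 8 h its libraries had 2945, 2957 and 2821 normalised counts with AU-15330, against 3187 and 3086 with DMSO. The 24 h groups overlapped and the 8 h groups did not. The log2 change was 0.07 ± 0.0641 at 24 h (limma adjusted p = 0.372, 95% interval -0.07 to 0.21) and -0.11 ± 0.0716 at 8 h (limma adjusted p = 0.249, 95% interval -0.26 to 0.05). Groups that do not overlap were common, at 59.0% of tested genes at 24 h and 62.5% at 8 h.

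**Figure D2:**
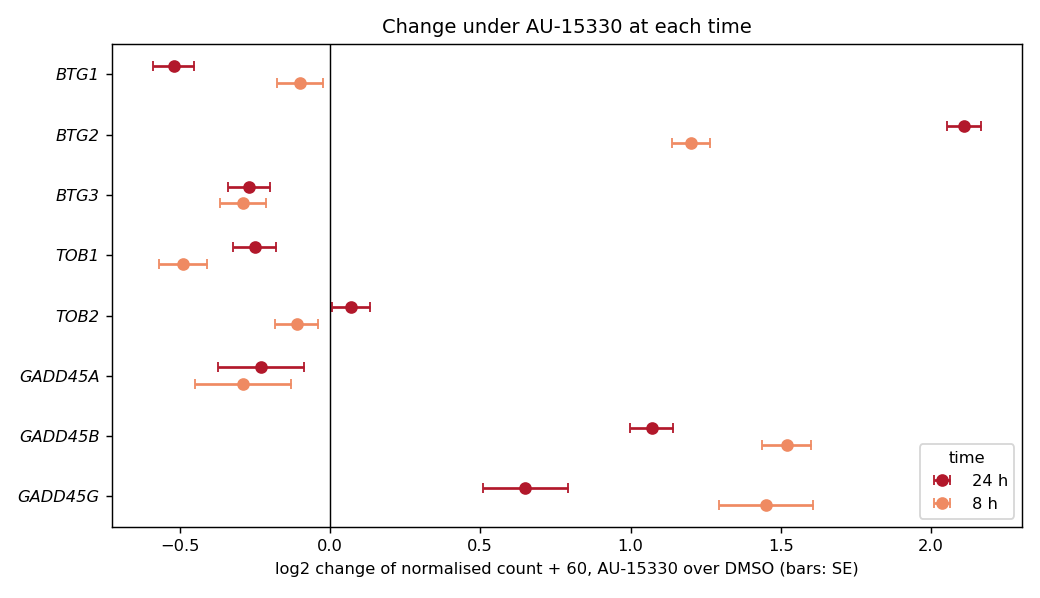
Log2 change of normalised count + 60, AU-15330 over DMSO, for each of the 8 genes at 24 h (upper point of each pair) and 8 h (lower point), with SE as bars. BTG2 reached 2.11 at 24 h, GADD45B and GADD45G had larger changes at 8 h (1.52 and 1.45) than at 24 h (1.07 and 0.65), and BTG1 and TOB1 had negative changes of -0.52 at 24 h and -0.49 at 8 h.

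GADD45B, a gene induced by NF-kappaB and TGF-beta signalling whose product also binds the JNK kinase MAP2K7, lies at chr19:2476122-2478259 on the plus strand. Its normalised counts were 7133, 7177 and 6409 in AU-15330 libraries at 24 h, against 3426, 3111 and 3233 in DMSO libraries. At 8 h they were 8770, 9188 and 7948 with AU-15330, against 2749 and 3208 with DMSO. Every treated library was above every control library at both times, and the 8 h treated libraries were above the 24 h treated ones. AU-15330 thus gave a log2 change of 1.07 ± 0.0727 at 24 h and 1.52 ± 0.0812 at 8 h, or 2.1-fold and 2.87-fold. It ranked 28th from the highest of all tested genes at 8 h and 180th at 24 h.

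GADD45G, a cytokine-induced member known for driving p38 activation in mouse T helper cells, lies at chr9:89605013-89606555 on the plus strand. It was scarce, with 211, 146 and 153 normalised counts in AU-15330 libraries at 24 h, against 90.0, 88.8 and 78.8 in DMSO libraries. At 8 h it had 506, 454 and 347 with AU-15330, against 111 and 129 with DMSO. No treated library fell within its control group, and all 3 treated libraries at 8 h exceeded all 3 at 24 h. The log2 change was 0.65 ± 0.141 at 24 h (limma adjusted p = 0.00758) and 1.45 ± 0.157 at 8 h (limma adjusted p = 3.01e-05). The added 60 counts shrink these values for so scarce a gene, and the plain ratio of mean counts was 1.98 at 24 h and 3.64 at 8 h. On log2(CPM + 5), which shrinks them further, the changes were 0.30 and 0.80. GADD45G ranked 34th from the highest of all tested genes at 8 h, between GADD45B and BTG2. The family was chosen with earlier results of these data known. The p-values of GADD45G, also for the difference between the times, may therefore not be free of that selection.

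GADD45A, a p53 target induced by DNA damage, lies at chr1:67685061-67688338 on the plus strand. Its normalised counts were 124, 94.2 and 81.6 in AU-15330 libraries at 24 h, against 104, 163 and 117 in DMSO libraries. At 8 h they were 84.5, 95.2 and 89.1 with AU-15330, against 105 and 142 with DMSO. The groups overlapped at 24 h and not at 8 h. The log2 change was -0.23 ± 0.143 at 24 h (limma adjusted p = 0.211, 95% interval -0.54 to 0.08) and -0.29 ± 0.159 at 8 h (limma adjusted p = 0.18, 95% interval -0.64 to 0.06). The counts added before taking logs shrink these values and intervals for so scarce a gene. The plain ratio of mean counts was 0.78 at 24 h and 0.726 at 8 h. At this depth a doubling of GADD45A lies outside both intervals, while a fall is not excluded. At 8 h even a halving of its counts lies within the interval.

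**Figure D3:**
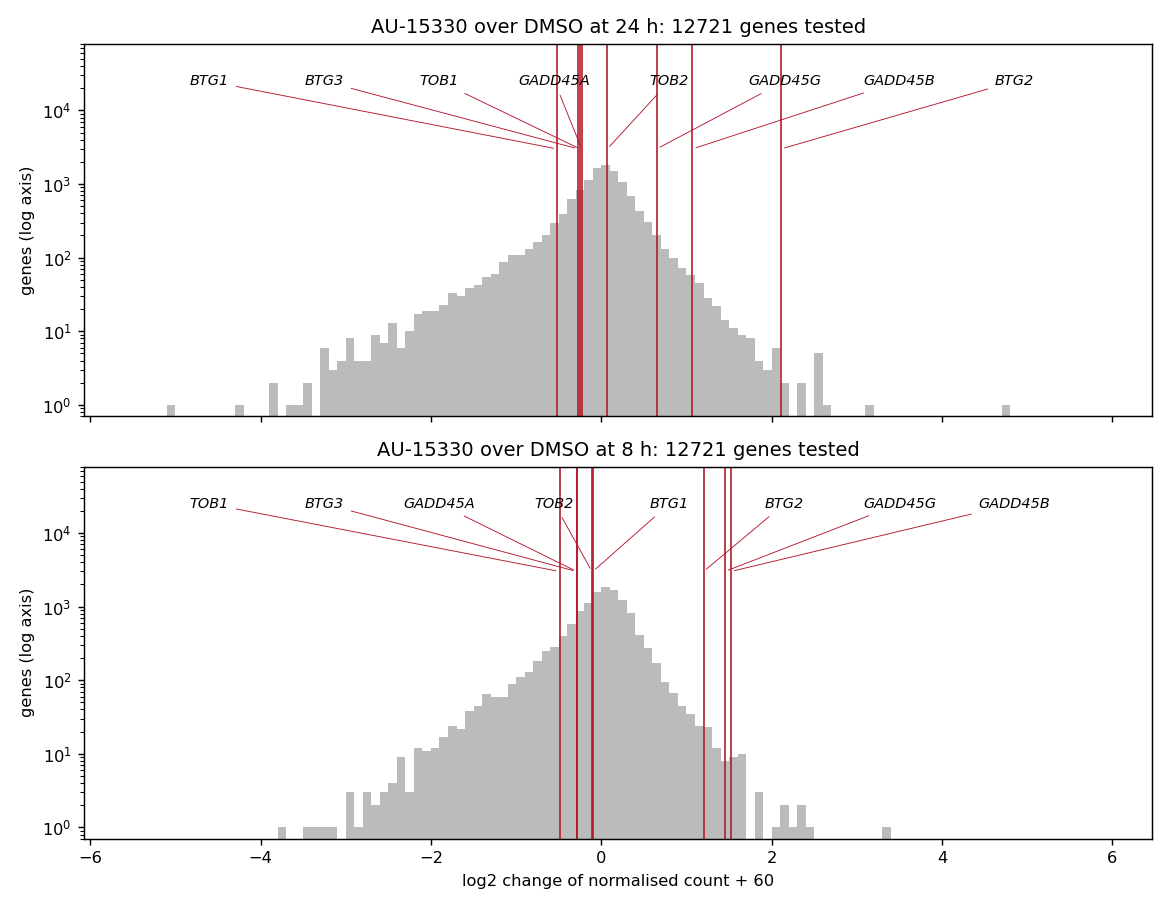
Histograms of the log2 change of normalised count + 60, AU-15330 over DMSO, over the 12721 genes tested at 24 h (top) and 8 h (bottom), with gene number on a log axis and red lines at the 8 genes. BTG2 and GADD45B at 24 h (2.11 and 1.07) and GADD45B, GADD45G and BTG2 at 8 h (1.52, 1.45 and 1.20) sit in the sparse right tail.

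The sequences just before the transcription starts of BTG2, GADD45B and GADD45G are shown because these are the members with higher RNA in treated cells. They are the 250 bases upstream of the RefSeq start on GRCh38.p14, at chr1:203305269-203305518 for BTG2, chr19:2475877-2476126 for GADD45B and chr9:89604762-89605011 for GADD45G, each on the plus strand. Capitals mark matches, on either strand, to the motifs named after the sequences.
BTG2: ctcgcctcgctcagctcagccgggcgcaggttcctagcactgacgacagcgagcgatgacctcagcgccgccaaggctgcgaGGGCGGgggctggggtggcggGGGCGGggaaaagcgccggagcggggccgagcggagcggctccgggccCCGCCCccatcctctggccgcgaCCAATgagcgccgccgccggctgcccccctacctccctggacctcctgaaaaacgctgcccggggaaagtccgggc
GADD45B: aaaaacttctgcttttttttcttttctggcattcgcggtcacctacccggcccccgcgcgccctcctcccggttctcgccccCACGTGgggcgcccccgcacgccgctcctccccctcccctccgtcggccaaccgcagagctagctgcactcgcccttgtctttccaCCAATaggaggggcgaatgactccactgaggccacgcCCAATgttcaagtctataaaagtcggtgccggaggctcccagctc
GADD45G: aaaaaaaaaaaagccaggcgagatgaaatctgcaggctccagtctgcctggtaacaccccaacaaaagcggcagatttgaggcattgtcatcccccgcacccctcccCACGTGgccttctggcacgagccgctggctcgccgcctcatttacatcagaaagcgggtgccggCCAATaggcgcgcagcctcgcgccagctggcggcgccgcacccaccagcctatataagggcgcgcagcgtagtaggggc
In windows from 250 bases before to 50 after the start, 8 motifs were searched on both strands in the 7 members with an entry and in 35116 RefSeq promoters. The CCAAT box (CCAAT) was in 5 of the 7 members and in 34.6% of all promoters, and the GC box (GGGCGG) in 5 of 7 and in 45.0%. These 3 genes each had a CCAAT box with its 5′ end, read along the gene, at -76 in BTG2, -82 and -45 in GADD45B and -79 in GADD45G, counted from the start as 0. BTG1 and TOB1, which fell, had one too, at -87 and -186. TOB1 has windows at 2 starts, and its CCAAT and GC boxes are in 1 of them, while the other held none of the 8 motifs. A member was counted if any of its windows held the motif, while the shares of all promoters count single windows. The E-box CACGTG was in 2 of 7 members, GADD45B at -168 and GADD45G at -143, and in 7.26% of all promoters. BTG2 had 3 GC boxes and no E-box, while GADD45B and GADD45G had an E-box and no GC box. The ETS motif CCGGAAG was in BTG3 and in 10.3% of promoters, and the FOXO motif GTAAACA in BTG1 and in 3.42%. The cAMP response element TGACGTCA (1.85% of promoters), the AP-1 motif TGANTCA (7.71%) and the NF-kappaB motif (1.61%) had no match in the windows of the 7 members. None of the matches marked in capitals overlapped another, and a match is a run of letters and not a bound site.

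The treatment effects at 24 h and 8 h were compared gene by gene. Of the 6 genes other than BTG2 and GADD45B, BTG1 and GADD45G passed the test of the difference, 2 of 6, and over all genes tested 18.5% were called, 7.54% higher and 11.0% lower. For BTG1 the log2 effect at 24 h minus that at 8 h was -0.42 ± 0.101 (limma adjusted p = 0.0147), and for GADD45G it was -0.80 ± 0.211 (limma adjusted p = 0.0163). Without DMSO replicate 1 at 8 h, with 1 library left in that group, neither passed, and the difference was -0.33 for BTG1 (limma adjusted p = 0.0672) and -0.73 for GADD45G (limma adjusted p = 0.0635). The differences for BTG3 (0.02 ± 0.103), TOB1 (0.24 ± 0.107), TOB2 and GADD45A did not pass (limma adjusted p = 0.864, 0.121, 0.222 and 0.892). As a description, the difference was 0.91 ± 0.0844 for BTG2 and -0.45 ± 0.109 for GADD45B. Over all genes tested, 59.3% of called differences were lower, against 40.7% to 52.7% under other scalings.

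Within each treatment, 24 h and 8 h were compared with the batch shared by time. In treated cells GADD45G was lower at 24 h than at 8 h, by a log2 change of -1.11 ± 0.141 (limma adjusted p = 0.000118). BTG1 was lower by -0.19 ± 0.0675 (limma adjusted p = 0.0488), a call that 13 of 20 alternatives lost. These were 2 of the 6 genes, and 39.4% of all tested genes were called, 18.3% higher and 21.1% lower. The log2 difference of GADD45B, given as a description, was -0.32 ± 0.0727. In DMSO cells limma called none of the 8 genes between 24 h and 8 h, and 10.1% of all tested genes, 6.56% higher and 3.56% lower. For so few genes, none called is not far from that share. At an unadjusted p under 0.05 there were 3 of the 8, namely BTG1, BTG3 and TOB1, against 25.0% of all tested genes, and their adjusted p-values were 0.0667, 0.135 and 0.119. The BTG1 change in DMSO cells was 0.23 ± 0.0754, beside -0.19 ± 0.0675 in treated cells, and both entered its difference of effects. BTG2 differed between DMSO times by 0.11 ± 0.0629 (limma adjusted p = 0.418), GADD45B by 0.13 ± 0.0812 (limma adjusted p = 0.435) and GADD45G by -0.30 ± 0.157 (limma adjusted p = 0.378). Among the DMSO calls of all genes 35.2% were lower, against 42.2% to 49.8% under other scalings.

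The genes whose log2 levels over the 11 libraries were most like those of BTG2, GADD45B and BTG1 were looked up among 10777 genes. The measure was Pearson's r, and the libraries share their 4 groups, so each r reflects the group differences and is a description. GNPDA1 was closest to BTG2 (r = 0.9956), with log2 changes of 1.33 at 24 h and 0.83 at 8 h, followed by CBSL (r = 0.9945), whose near-identical copy CBS makes its level uncertain, and UTP3 (r = 0.9919). AMN1 was closest to GADD45B (r = 0.9939), with log2 changes of 1.06 at 24 h and 1.57 at 8 h, followed by SPSB2 (r = 0.992) and ZNF524 (r = 0.9902). NIPA2 (r = 0.9739), LTA4H (r = 0.9619) and AMMECR1 (r = 0.9597) were closest to BTG1, and their log2 changes at 24 h were -0.29, -0.64 and -0.59.

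The deadenylation machinery on which BTG and TOB proteins act was read against the shares over all genes given above, 50.9% called at 24 h and 44.2% at 8 h. Of 11 CCR4-NOT subunit genes, 1 rose and 3 fell at 24 h and none rose and 3 fell at 8 h, and the median log2 change was -0.07 and 0.07. CNOT7 and CNOT8, the deadenylases that BTG and TOB proteins bind, differed in direction at 24 h, with log2 changes of 0.17 ± 0.0416 and -0.20 ± 0.0544 (limma adjusted p = 0.00581 and 0.00993). CNOT8 at 8 h was -0.16 ± 0.0608 (limma adjusted p = 0.0487), lost in 12 of 20 alternatives. TNKS1BP1, a subunit of the complex, averaged 1604 normalised counts with AU-15330 and 2964 with DMSO at 24 h, and 1076 with AU-15330 and 2973 with DMSO at 8 h. It fell by the largest log2 change of the 11 genes, -0.87 ± 0.11 at 24 h (limma adjusted p = 4.55e-05) and -1.41 ± 0.122 at 8 h (limma adjusted p = 6.13e-06). CNOT11 fell by 0.35 on the log2 scale at 24 h (limma adjusted p = 2.63e-05). Of 6 other deadenylase and poly(A) binding protein genes, 1 rose and 1 fell at 24 h, PABPC4 (0.14) and PABPC1 (-0.25), and 2 rose at 8 h, PARN (0.67) and PAN2 (0.44). Their limma adjusted p-values were 0.0112, 0.00214, 0.0125 and 0.0015. PARN at 8 h was lost without DMSO replicate 1 (log2 change 0.42, limma adjusted p = 0.147). Of 5 tested protein partners of BTG and TOB proteins, the estrogen receptor gene ESR1 (-0.65) and the arginine methyltransferase gene PRMT1 (-0.15) fell at 24 h (limma adjusted p = 0.009 and 0.00692), and SMAD4 (-0.25) fell at 8 h (limma adjusted p = 0.00334). PRMT1 lost its call in 3 of 20 alternatives.

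Genes downstream of or bound by GADD45 proteins moved in both directions. Over all genes tested, 50.9% were called at 24 h and 44.2% at 8 h. The counts below were not tested against these shares. Of 10 p38 and JNK pathway kinase genes, 5 rose and 3 fell at 24 h and 2 rose and 2 fell at 8 h, with a median log2 change of 0.07 and 0.04. MAP3K5 (-0.74 ± 0.161) and the p38 gene MAPK14 (-0.38 ± 0.0401) fell at 24 h, while MAP2K4 (0.47 ± 0.0792) and the JNK gene MAPK8 (0.31 ± 0.0579) rose (limma adjusted p = 0.00164, 1.26e-05, 0.000419 and 0.000918). Of these only MAPK14 was also called at 8 h (-0.17, limma adjusted p = 0.00681). At 8 h the p38 activator MAP2K3 rose (0.68 ± 0.0603) and MAPK11 fell (-0.61 ± 0.0854), with limma adjusted p = 3.74e-06 and 0.000204. Both were called the other way at 24 h, MAP2K3 at -0.30 ± 0.0539 and MAPK11 at 0.25 ± 0.0764 (limma adjusted p = 0.000849 and 0.0118). MAP2K3 averaged 5003 normalised counts with AU-15330 and 6187 with DMSO at 24 h, and 9985 with AU-15330 and 6196 with DMSO at 8 h. Of 10 cell cycle and repair partners, 3 rose and 2 fell at 24 h and 3 rose and 4 fell at 8 h. The CDK inhibitor gene CDKN1A, the best known p53 target, averaged 9987 normalised counts with AU-15330 and 12621 with DMSO at 24 h, and 5005 with AU-15330 and 10684 with DMSO at 8 h. Its log2 change was -0.34 ± 0.0627 at 24 h (limma adjusted p = 0.000605) and -1.09 ± 0.0701 at 8 h (limma adjusted p = 5.07e-07), so it fell at both times. TET2 (0.41) and ING1 (0.32) rose at 24 h and PCNA (-0.13) fell, with limma adjusted p = 0.000238, 0.000241 and 0.00704, the PCNA call being lost in 3 of 20 alternatives. TET2, ING1 and PCNA were called the same way at 8 h, at 0.25, 0.23 and -0.21 (limma adjusted p = 0.0163, 0.00636 and 0.00082). TET1 fell at 8 h (-0.34 ± 0.103, limma adjusted p = 0.0219), a call lost in 5 of 20.

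Of 13 tested transcription factors known to act on BTG and GADD45 genes, 2 rose and 7 fell at 24 h and 4 rose and 6 fell at 8 h. Over all genes tested, 50.9% were called at 24 h and 44.2% at 8 h, and no list was tested against these shares. ATF3, a stress-induced factor, averaged 265 normalised counts with AU-15330 and 648 with DMSO at 24 h, and 176 with AU-15330 and 625 with DMSO at 8 h. Its log2 changes of -1.14 ± 0.195 at 24 h and -1.56 ± 0.218 at 8 h both passed (limma adjusted p = 0.000193 and 9.28e-05). EGR1, an immediate early factor, averaged 2722 normalised counts with AU-15330 and 5788 with DMSO at 24 h, and 1621 with AU-15330 and 288 with DMSO at 8 h. Its log2 change was -1.06 ± 0.259 at 24 h (limma adjusted p = 0.00238) and 2.28 ± 0.29 at 8 h (limma adjusted p = 0.00166), and its DMSO level differed widely between the times. FOXO1, a driver of quiescence genes, and SMAD3 fell at 24 h by 0.92 and 0.56 on the log2 scale (limma adjusted p = 9.4e-07 and 1.96e-05). Both were also called lower at 8 h, with log2 changes of -0.36 and -0.62 (limma adjusted p = 0.00535 and 6.64e-05). Of 13 other tested cell cycle inhibitors and quiescence genes, a list that shares CDKN1A with the GADD45 partners, 1 rose and 5 fell at 24 h and 2 rose and 4 fell at 8 h. RB1 averaged 17522 normalised counts with AU-15330 and 27681 with DMSO at 24 h, and changed by -0.66 ± 0.0389 on the log2 scale, while CDKN2C changed by 0.37 ± 0.0593 (limma adjusted p = 1.15e-07 and 0.000308). At 8 h RB1 was also lower (-0.28, limma adjusted p = 0.00032), and CDKN2C was not called (-0.06, limma adjusted p = 0.504). KLF2, a quiescence factor of lymphocytes, had a log2 change of -0.69 ± 0.133 at 24 h (limma adjusted p = 0.00223) and 1.06 ± 0.148 at 8 h (limma adjusted p = 0.000158).

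**Figure D4:**
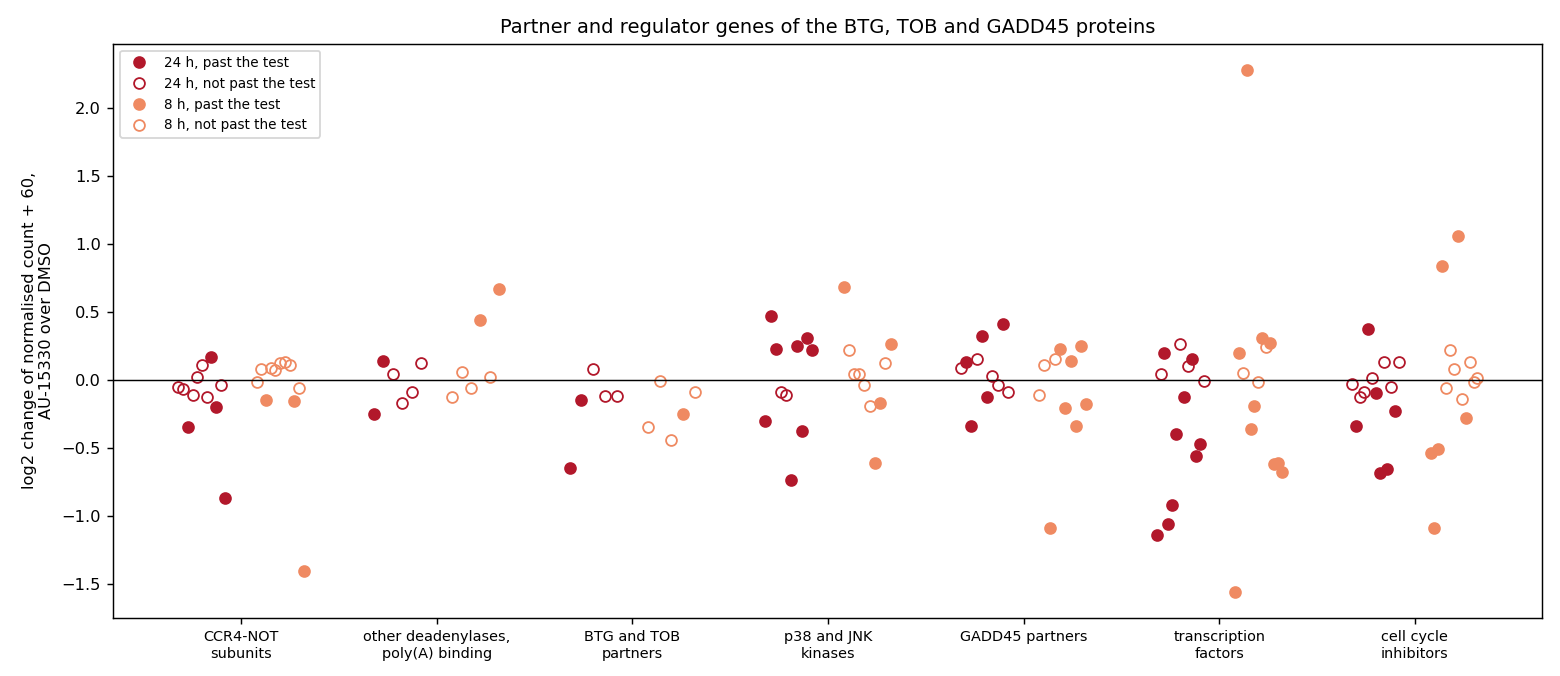
Log2 change of normalised count + 60, AU-15330 over DMSO, for the tested genes of 7 lists of partners and regulators at 24 h (left of each pair) and 8 h (right), filled where limma's adjusted p passed 0.05. Points lie on both sides of 0 in each list. Among the BTG and TOB partners only SMAD1 at 24 h (0.08, not past the test) is above 0. EGR1 at 2.28 and ATF3 at -1.56 are the extremes at 8 h.

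The RNAs of the degrader's targets were lower at both times for SMARCA2 and SMARCA4 and at 24 h for PBRM1. SMARCA2 had a log2 change of -0.87 ± 0.0703 at 24 h and -0.48 ± 0.0786 at 8 h (limma adjusted p = 1.1e-06 and 0.000261), and SMARCA4 of -0.28 ± 0.0476 and -0.16 ± 0.0532 (limma adjusted p = 0.000489 and 0.0294). PBRM1 had -0.16 ± 0.0506 at 24 h (limma adjusted p = 0.0189) and 0.00 ± 0.0566 at 8 h (limma adjusted p = 0.982). These are RNA levels, and they say nothing on the loss of the proteins.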

How the data were processed

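RNA from 12 samples was sequenced. The labels give poly(A) RNA and name a TruSeq poly(A) kit or a TruSeq ribosomal depletion kit, without saying which sample had which. Per the submitters' processing notes, the build was GRCh38.p13 and the tools were DESeq2 1.24.0 under R 4.3.2, kallisto 0.46.1, FastQC 0.11.9 and Trimmomatic 0.40. The deposited table holds log2 values named as log CPM. Their common minimum of 10.36 in all 11 libraries led to their being read as a variance-stabilising transform, which was inverted to normalised counts. A shared minimum alone cannot show which transform was used. Of values up to 20 counts, 53.5% to 56.3% lay within 0.02 of a whole number, so no count model was used. On the deposited scale a doubling is 0.163 at 100, 0.461 at 1000 and 0.852 at 10000 normalised counts, so folds were computed on log2(normalised count + 60). Folds of scarce genes stay understated there. The table has 12 columns of values, and 1, identical to another of the same name, was not used. The planned fit assumed 12 libraries.

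limma 3.58.1 (R 4.3.3) fitted the mean of each group, with a mean trend in the prior variance, over 11 libraries and 7 residual degrees of freedom. It tested the 12721 entries (62.6%) that reached 1 CPM in 3 or more libraries, with Benjamini-Hochberg adjustment over all of them. The members and the lists of related genes were chosen with earlier results of these data known. Of each list, the text names up to 4 called genes with the largest change at 24 h and up to 2 at 8 h. Of the listed genes HOXB9, ZBTB16 and KLF4 were below the filter, and BTG4 was not in the deposited table. Gene coordinates are from GENCODE release 29, and upstream sequences from RefSeq, matched by symbol for 7 of 8 genes. GADD45A had no entry. Alternatives were other scalings, filters and spread estimates, the replicate number as a block and leaving out each library. The procedure was tested on simulated data.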

Additional observations from a re-analysis of the deposited data

Results flagged for a closer look

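The effect of AU-15330 differed between 24 h and 8 h for BTG1 and GADD45G by limma's test of the difference itself. For BTG1 the log2 effect at 24 h minus that at 8 h was -0.42 (limma adjusted p = 0.0147), with all 3 treated libraries below all 3 DMSO libraries at 24 h and overlapping groups at 8 h. For GADD45G it was -0.80 (limma adjusted p = 0.0163), with treated libraries above DMSO libraries at both times. From 8 h to 24 h BTG1 changed by 0.23 ± 0.0754 in DMSO libraries (not called) and by -0.19 ± 0.0675 in treated ones. The BTG1 difference thus held a change in DMSO libraries at least as large as that in treated libraries. GADD45G changed by -0.30 ± 0.157 in DMSO libraries (not called) and by -1.11 ± 0.141 in treated ones. Each time is its own batch in the labels, so time and batch cannot be told apart. Without DMSO replicate 1 at 8 h, which leaves that group 1 library assumed to vary like the others, the differences were -0.33 for BTG1 and -0.73 for GADD45G and did not pass (limma adjusted p = 0.0672 and 0.0635).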

How the results depend on the processing

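At 24 h and at 8 h none of the 6 genes other than BTG2 and GADD45B changed the sign of its treatment effect under the 20 alternatives (19 for GADD45A). However, the uncalled effects of BTG1 at 8 h and TOB2 at 24 h shrank to -0.0 and 0.0 with 1 library left out. Leaving out each library gave 5774 to 6480 called genes at 24 h and 4397 to 5698 at 8 h, with 3 to 4 and 2 to 3 of these 6 genes among them. For the difference between the times, 2358 genes were called, 1571 to 2414 with 1 library left out, with 0 to 2 of the 6 genes (1 to 4 of the 8, BTG2 and GADD45B having been selected on these values). The replicate block also leaves out the second DMSO library at 8 h, which has no number, so 1 library stands for that group. It called 1272, against 1571 without that library alone. For DMSO at 24 h against 8 h, 1287 genes were called, 661 to 1355 with 1 library left out, with 0 to 1 of the 8 genes, and 431 with the block, against 661 without that library alone. That 1 was BTG3 (-0.31, limma adjusted p = 0.0449) without the second DMSO library at 8 h, or BTG1 (0.23, limma adjusted p = 0.0482) without AU-15330 replicate 3 at 8 h.

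Small uncalled values changed sign. The difference between the times for GADD45A was -0.02 after quantile normalisation, -0.08 with the replicate block and -0.09 to 0.20 with 1 library left out, and that for BTG3 was -0.10 to 0.14 with 1 library left out. The change between DMSO times for GADD45A was -0.11 to 0.18, and the changes between AU-15330 times were -0.03 to 0.11 for TOB1, -0.01 to 0.13 for TOB2 and -0.02 to 0.17 for GADD45A. Same-numbered libraries deviated together only weakly: all 9 pairs had a positive correlation of deviations (range 0.030 to 0.134), 1 of them above 0.1. Differently numbered pairs ranged from -0.1 to 0.037, so any pairing by replicate number was weak. In the block fit CNOT8, TET1 and PAN2 did not pass at 8 h (limma adjusted p = 0.215, 0.054 and 0.0733). Without the second DMSO library alone CNOT8 and TET1 did not pass either (0.201 and 0.0908), and PAN2 did (0.0234). BTG3 passed between AU-15330 times in both fits (limma adjusted p = 0.0334 and 0.0375). GADD45A was not tested under the 5 CPM filter. Depth limits GADD45A and GADD45G most, which were the scarcest of the 8 genes.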
